A study of Homo sapiens with 12 samples.

Results

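RNA of IDH1 and of 8 further enzymes of the tricarboxylic acid (TCA) cycle and its cytosolic arm was measured with and without 77-39, an inhibitor of the mitochondrial deacetylase SIRT3, in 2 granulosa cell tumor (GCT) cell lines. The 9 genes were chosen by name out of 58735 genes with a value, and all 9 passed the filter on low values. IDH1 was selected on its response in the libraries labelled KGN, where it was among the genes with the smallest p that were higher with 77-39, so its values there and against the untreated libraries of the other line are given without a test. The other genes were IDH3A, IDH3B, IDH3G, ACO1, CS, FH, OGDH and MDH2. The 12 libraries comprised 3 untreated and 3 treated ones labelled KGN, an adult-type GCT line, and 3 untreated and 3 treated ones labelled COV434, which the study describes as juvenile-type. Both lines were wild type per the labels, and treatment lasted 72 h at 10 µm/ml of 77-39, a unit that does not tell µM from µg/ml and that also stands on the untreated libraries, which are untreated by their titles. Nothing in the labels says that libraries of a group came from separate cultures, so the p-values below measure the spread between these libraries. Being bulk RNA, a lower level cannot be told apart from fewer cells that make the transcript.

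The TCA cycle in the mitochondrial matrix oxidizes acetyl-CoA, and its enzymes pass electrons to NADH and FADH2 for respiration. Isocitrate can be oxidized to 2-oxoglutarate by the NAD-dependent IDH3 complex of the matrix, built from alpha, beta and gamma subunits, or by the NADP-dependent enzymes IDH1 in the cytosol and IDH2 in the matrix. IDH1 thereby supplies cytosolic NADPH, and running in reverse it makes isocitrate from glutamine-derived carbon for lipid synthesis.

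The libraries went against their line labels at genes that tell the lines apart. FOXL2, the granulosa transcription factor that is mutated in most adult-type tumors, had 2 reads over the 6 KGN-labelled libraries together and stood between 11.5 and 14.0 FPKM (fragments per kilobase of gene, scaled to library size) in those labelled COV434. SMARCA2, a chromatin remodelling ATPase that COV434 cells are known to lack, had 1 to 3 reads in each library labelled KGN and stood between 4.51 and 6.48 FPKM in those labelled COV434. SMARCA4, also known to be lost in COV434 cells, was between 2.25 and 2.60 FPKM in the former and between 6.51 and 12.6 FPKM in the latter. Of 8 granulosa markers, FSHR, NR5A1 and GATA4 were at 0 to 3 reads in every library of either label. CYP19A1 was at most 0.161 FPKM over all 12. INHA was between 0.580 and 1.22 FPKM in the libraries labelled KGN and between 2.40 and 5.22 FPKM in those labelled COV434. AMH was between 4.07 and 4.83 FPKM in the former and between 5.45 and 9.14 FPKM in the latter. WT1 was between 45.9 and 61.4 FPKM in the libraries labelled KGN and at 0 in those labelled COV434. Groups are therefore named by label below, and a statement on a line holds for the libraries with that label. Each library held between 15547851 and 18280415 reads on genes, and mitochondrially encoded genes took between 7.30% and 8.81% of them under the KGN label and between 7.71% and 13.5% under the COV434 label, most in treated library 1. SIRT3, the target of 77-39, had 4.22, 4.35 and 4.30 FPKM without and 3.63, 3.94 and 4.55 FPKM with 77-39 in KGN (log2 fold change -0.07, limma adjusted p = 0.475). The COV434 values were 3.70, 4.30 and 3.46 FPKM without and 3.36, 4.95 and 4.82 FPKM with 77-39 (log2 fold change 0.15, limma adjusted p = 0.929).

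The upstream sequences of 5 starts are printed, and their part in the RNA levels was not tested. They lie before IDH1, chosen by its rise under the KGN label, before ACO1, its cytosolic partner, and before IDH3A and IDH3B, subunits of 1 complex. They come from RefSeq (GRCh38.p14), where 8 of the 9 genes had a window of 250 bases before and 50 after a start, IDH1 with 2 windows. Bases inside any annotated exon were left out. Capitals mark the GC box GGGCGG on either strand, a motif bound by Sp1-type factors.
IDH1, start at 208254458, chr2:208254459-208254708, minus strand: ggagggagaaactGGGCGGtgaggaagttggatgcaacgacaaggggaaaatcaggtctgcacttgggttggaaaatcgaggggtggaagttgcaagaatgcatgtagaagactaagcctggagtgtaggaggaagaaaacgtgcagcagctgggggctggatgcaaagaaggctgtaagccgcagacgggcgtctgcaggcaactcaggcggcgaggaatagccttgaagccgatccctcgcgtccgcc
IDH1, start at 208255071, chr2:208255134-208255246, minus strand: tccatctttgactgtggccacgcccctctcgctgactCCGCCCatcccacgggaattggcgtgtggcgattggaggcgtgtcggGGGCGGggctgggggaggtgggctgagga
ACO1, chr9:32384393-32384602, plus strand: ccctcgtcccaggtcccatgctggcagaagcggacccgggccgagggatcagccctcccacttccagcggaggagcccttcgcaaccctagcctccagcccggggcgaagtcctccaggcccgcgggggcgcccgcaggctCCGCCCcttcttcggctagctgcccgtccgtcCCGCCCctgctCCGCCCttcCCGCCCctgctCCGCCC
IDH3A, chr15:78149112-78149320, plus strand: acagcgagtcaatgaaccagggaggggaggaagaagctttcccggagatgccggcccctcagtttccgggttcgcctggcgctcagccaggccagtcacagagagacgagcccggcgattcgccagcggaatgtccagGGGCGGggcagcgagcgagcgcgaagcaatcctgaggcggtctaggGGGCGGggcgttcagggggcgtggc
IDH3B, chr20:2664220-2664351, minus strand: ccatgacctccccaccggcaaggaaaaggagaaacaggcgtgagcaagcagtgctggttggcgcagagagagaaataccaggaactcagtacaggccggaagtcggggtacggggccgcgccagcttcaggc
The windows of IDH1 began at different first exons, and 1 and 3 of its 9 annotated transcripts started in them. Both windows of IDH1 held the GC box, as did those of IDH3A, ACO1, CS and FH, so that 6 of the 9 windows held it, against 45.0% of 35116 windows in the table. ACO1 had 6 copies in its whole window, 5 of them in the printed stretch, and IDH3B, IDH3G and MDH2 had none. The CCAAT box (CCAAT, both strands), at 34.6% of all windows, was in 4 of the 9, among them the second window of IDH1 with 2 copies. The ETS core CCGGAAG, at 10.3% of all windows, was in those of IDH3B, IDH3G and MDH2. The antioxidant response element core TGACNNNGC, at 13.3% of all windows, was in the second window of IDH1 and in that of IDH3G. The motifs were counted separately, whether or not they overlapped. The E box CACGTG, at 7.26% of all windows, was in none of the 9. OGDH had no window. GC content was between 53.3% and 76.3% in the 9 windows, against a median of 58.7% over all.

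IDH1 (ENSG00000138413, chromosome 2, 208236227 to 208266074, minus strand) was the member with the largest difference between treated and untreated libraries labelled KGN. Its level was 15.1, 15.7 and 14.6 FPKM in the untreated libraries and 40.0, 41.8 and 38.9 FPKM in the treated ones. Every treated library lay above every untreated one. The means of 15.1 ± 0.568 and 40.3 ± 1.48 FPKM (SD, n = 3) differed 2.66-fold, or by 1.35 (standard error 0.05) on the scale of log2(FPKM + 1). This contrast chose IDH1: by p it was the 4th of 2225 genes that were higher with 77-39 past the adjusted threshold with no overlap between the groups, with the log2 fold change of the gene just behind it at 2.18 (FAM129A) and of the next at 0.95 (WARS), and by log2 fold change it was the 12th of 6542 genes above 0.

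In the libraries labelled COV434, which did not enter that choice, IDH1 had 24.9, 44.3 and 34.6 FPKM without and 44.9, 50.0 and 38.9 FPKM with 77-39. The untreated libraries spread over a wider range than the treated ones, and the groups overlapped. The log2 fold change was 0.39 (standard error 0.22, 95% confidence interval -0.12 to 0.89), which did not pass (limma adjusted p = 0.766). Libraries with the same number deviated together in COV434, though number 3 barely more than differently numbered ones. IDH1 was higher in the treated library of each of the 3 pairs. It was higher by 1.80-fold in pair 1, 1.13-fold in pair 2 and 1.12-fold in pair 3. IDH3G and CS were also higher in all 3 pairs, and IDH3A and MDH2 were lower in all 3. The share of all genes with 1 direction in all 3 pairs was not counted. With the pair as a block, the unadjusted p of IDH1 was under 0.05 and limma's adjusted p = 0.333, so IDH1 missed the adjusted threshold in either fit. Without untreated library 1, the lowest of the group, the log2 fold change was 0.18. The response in the libraries labelled KGN exceeded that in those labelled COV434 by 0.97 (standard error 0.24) on the log2 scale, which is a description, since IDH1 was chosen by the first of the 2 responses.

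Without treatment, IDH1 was lower in every library labelled KGN than in any labelled COV434, with means of 15.1 and 34.6 FPKM and a log2 difference of -1.11 (standard error 0.20). Treated KGN libraries, at 38.9 to 41.8 FPKM, lay within the range of the untreated COV434 ones, 24.9 to 44.3 FPKM. IDH1-AS1, an antisense gene that overlaps IDH1 on the other strand, had 87 reads over the 12 libraries against 32494 for IDH1.

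**Figure D1:**
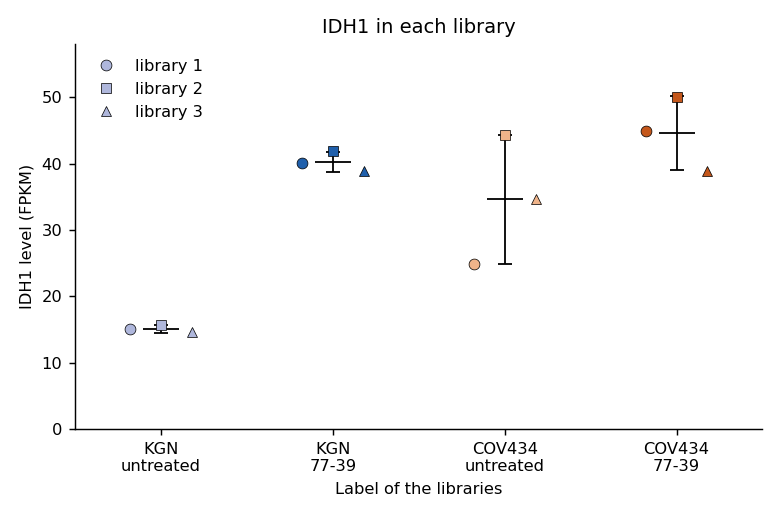
IDH1 level in FPKM (y axis, from 0) in each of 12 libraries, by label of line and treatment (x axis). Symbols are single libraries, with the symbol giving the library number, and bars are mean and SD (n = 3). The 3 treated KGN libraries sit between 38.9 and 41.8 FPKM, above the untreated ones at 14.6 to 15.7 FPKM, and the COV434 groups overlap.

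Within a library, the ratio of IDH1 to CS, the citrate synthase that opens the cycle, does not depend on library size. In FPKM this ratio was 0.555, 0.579 and 0.509 in the untreated and 1.57, 1.69 and 1.69 in the treated libraries labelled KGN. For COV434 it was 0.773, 1.48 and 1.00 without and 1.37, 1.55 and 1.12 with 77-39. IDH1 was thus below CS in all untreated and above CS in all treated libraries labelled KGN, while the COV434 groups overlapped. In KGN this ratio and the ranks that follow carry the rise that chose IDH1, so they are descriptions. Among the 9 genes IDH1 ranked 7th by FPKM in each untreated and 2nd in each treated library labelled KGN, and between 4th and 6th in those labelled COV434. FPKM divides by the length of the merged gene model. With the length of the shortest principal transcript in its place, IDH1 ranked 6th by mean level in untreated and 1st in treated KGN libraries.

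The cytosolic aconitase ACO1 (ENSG00000122729, chromosome 9, 32384603 to 32454769, plus strand), which makes the isocitrate that IDH1 uses and, without its iron-sulfur cluster, binds iron-responsive elements as iron regulatory protein 1, was the only member that passed the test as higher. Its level was 6.83, 7.60 and 6.95 FPKM in untreated and 8.98, 8.62 and 8.12 FPKM in treated libraries labelled KGN, with no overlap. On the log2 scale it rose by 0.24 (standard error 0.06), with a limma adjusted p = 0.020. Its COV434 values were 14.7, 14.7 and 16.0 FPKM without and 14.7, 11.6 and 11.7 FPKM with 77-39. Treated libraries 2 and 3 were the lowest of the 6, and the log2 fold change of -0.25 did not pass (95% confidence interval -0.59 to 0.09, limma adjusted p = 0.785). The difference between the responses of the lines was 0.48 (standard error 0.14), with an adjusted p = 0.0886 in limma's interaction test. Over 21 alternative fits this adjusted p ran from 0.0156 to 0.217. It passed in 1 of them, the fit without treated library 1 of COV434. Leaving out that library also raised the interaction calls over all genes from 472 to 975. In KGN the rise of ACO1 was past the threshold in 11 of 16 alternative fits, and was lost without untreated library 3 (adjusted p = 0.0685), treated library 1 (adjusted p = 0.0677) or treated library 2 (adjusted p = 0.0664).

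FH (ENSG00000091483, chromosome 1, 241497603 to 241519761, minus strand), the fumarase that hydrates fumarate to malate, showed the largest fall among the members. It had 40.3, 44.8 and 41.6 FPKM in untreated and 32.1, 33.9 and 32.7 FPKM in treated libraries labelled KGN. All treated libraries lay below all untreated ones, and FH fell by 0.35 on the log2 scale (standard error 0.05, limma adjusted p = 0.00355). Under the COV434 label, FH had 81.4, 124 and 107 FPKM without and 85.1, 111 and 89.3 FPKM with 77-39. These groups overlapped, at a log2 fold change of -0.11 (95% confidence interval -0.58 to 0.35, limma adjusted p = 0.973).

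CS (ENSG00000062485, chromosome 12, 56271699 to 56300392, minus strand), which joins acetyl-CoA and oxaloacetate, had 27.2, 27.1 and 28.6 FPKM in untreated and 25.5, 24.8 and 23.0 FPKM in treated libraries labelled KGN. The groups did not overlap, and CS fell by 0.17 on the log2 scale (standard error 0.05, limma adjusted p = 0.0417). This call was kept in only 4 of 16 alternative fits and was lost with each single library left out, with adjusted p-values of 0.0537 to 0.134. Treated and untreated COV434 libraries overlapped for CS, which had 32.3, 30.0 and 34.6 FPKM without and 32.7, 32.2 and 34.7 FPKM with 77-39, a log2 fold change of 0.04 (95% confidence interval -0.28 to 0.36, limma adjusted p = 0.988).

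The 3 subunits of IDH3 did not move alike in the libraries labelled KGN. IDH3A (ENSG00000166411, chromosome 15, 78131498 to 78171949, plus strand) encodes the catalytic alpha subunit and had 2.89, 3.05 and 2.77 FPKM without and 3.11, 3.32 and 3.06 FPKM with 77-39. Treated libraries lay just above untreated ones, but the log2 fold change of 0.09 did not pass (95% confidence interval -0.05 to 0.23, limma adjusted p = 0.26). IDH3B (ENSG00000101365, chromosome 20, 2658395 to 2664219, minus strand), the beta subunit, had 24.2, 23.7 and 22.9 FPKM without and 17.8, 19.6 and 19.7 FPKM with 77-39. It fell without overlap, by 0.30 on the log2 scale (standard error 0.05, limma adjusted p = 0.00617). IDH3G (ENSG00000067829, chromosome X, 153785766 to 153794523, minus strand), the gamma subunit, had 28.7, 31.3 and 32.7 FPKM without and 24.9, 26.1 and 28.9 FPKM with 77-39. Its groups overlapped by 1 library on each side, and the log2 fold change of -0.21 did not pass (95% confidence interval -0.38 to -0.04, limma adjusted p = 0.0645).

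IDH3G is the least certain of the 9. Its gene overlaps SSR4, a subunit of the translocon-associated complex on the other strand, from 153793516 to 153794523, and whether counting used strand is not given in the sources used here. SSR4 had 43164 reads over the 12 libraries and IDH3G 15926, so reads of the 2 genes cannot be told apart in that stretch. The ratio of IDH3A to IDH3B, taken within libraries, was 0.119, 0.129 and 0.121 in untreated and 0.175, 0.170 and 0.156 in treated libraries labelled KGN. For COV434 it was 0.331, 0.224 and 0.250 without and 0.331, 0.221 and 0.211 with 77-39. The ratio was higher in every treated than in every untreated library labelled KGN, and the COV434 groups overlapped. IDH3A was the lowest of the 9 in all 4 groups, also per kilobase of its principal transcript, by which its untreated KGN mean was 4.80 against 39.3 for IDH3B.

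The IDH3 subunits overlapped between the COV434 groups. IDH3A had 11.0, 6.80 and 7.61 FPKM without and 8.22, 6.31 and 7.32 FPKM with 77-39 (log2 fold change -0.17, limma adjusted p = 0.924). IDH3B had 33.2, 30.3 and 30.5 FPKM without and 24.8, 28.6 and 34.7 FPKM with 77-39 (log2 fold change -0.10, limma adjusted p = 0.965). The treated libraries of IDH3B reached both below and above the untreated ones. IDH3G had 24.1, 24.0 and 30.3 FPKM without and 26.0, 30.1 and 31.3 FPKM with 77-39 (log2 fold change 0.15, limma adjusted p = 0.913).

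OGDH (ENSG00000105953, chromosome 7, 44606572 to 44709066, plus strand), the E1 subunit of the 2-oxoglutarate dehydrogenase complex, had 15.5, 16.6 and 17.6 FPKM in untreated and 14.3, 15.4 and 13.0 FPKM in treated libraries labelled KGN. The groups did not overlap, and the log2 fold change of -0.21 did not pass after adjustment (limma adjusted p = 0.065). Its COV434 levels were 84.7, 55.2 and 70.8 FPKM without and 76.3, 63.9 and 64.2 FPKM with 77-39, a log2 fold change of -0.03 (95% confidence interval -0.47 to 0.42, limma adjusted p = 0.996). MDH2 (ENSG00000146701, chromosome 7, 76048051 to 76067508, plus strand), the malate dehydrogenase that closes the cycle, had 50.4, 57.8 and 55.5 FPKM without and 45.9, 50.0 and 51.7 FPKM with 77-39 in the libraries labelled KGN. Treated library 3 lay above untreated library 1, and the log2 fold change was -0.15 (95% confidence interval -0.31 to 0.02, limma adjusted p = 0.142). The COV434 libraries had 72.5, 93.3 and 103 FPKM of MDH2 without and 71.6, 89.8 and 93.8 FPKM with 77-39, a log2 fold change of -0.07 (limma adjusted p = 0.985).

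**Figure D2:**
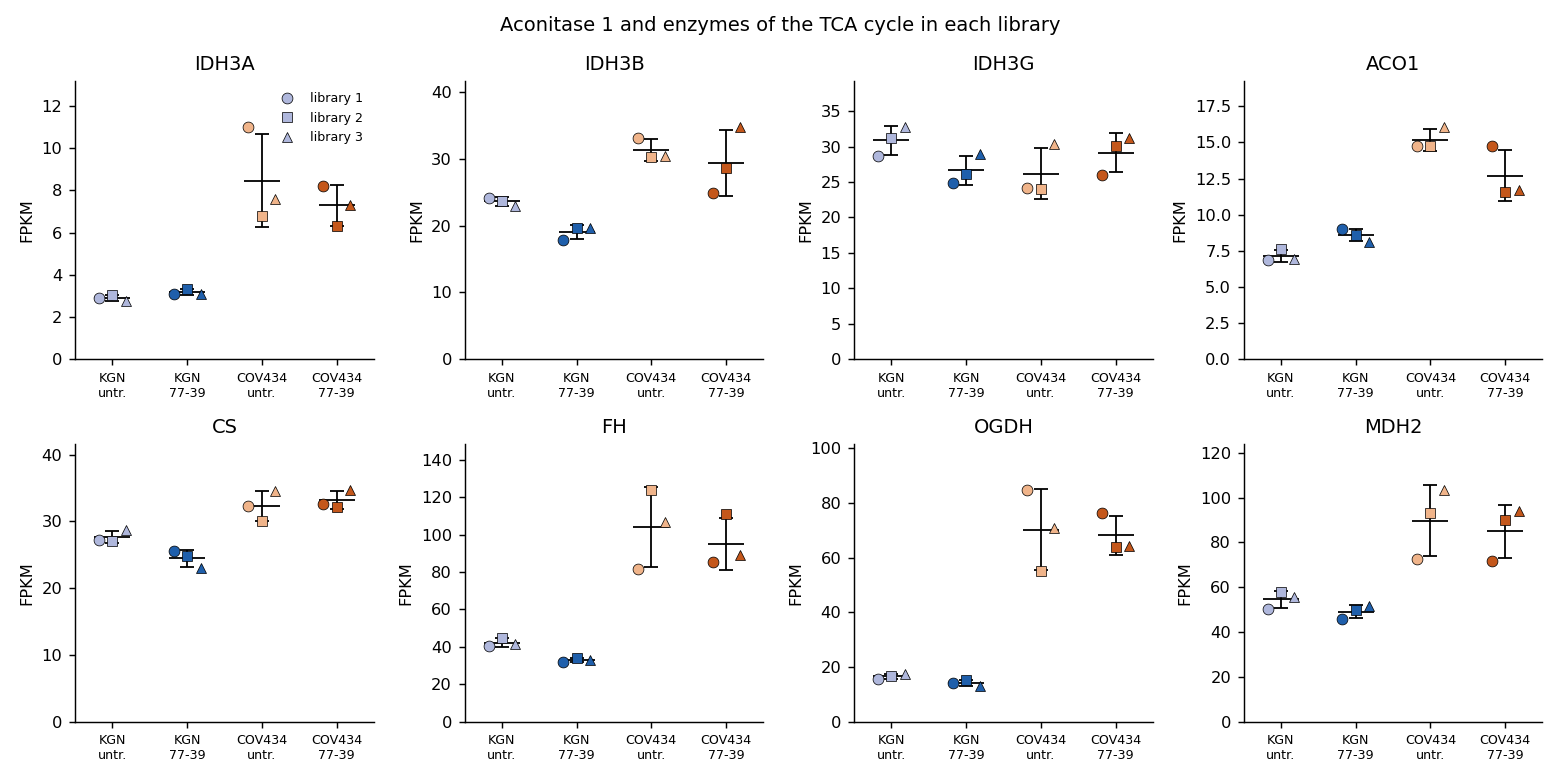
Levels in FPKM (y axes, from 0, scaled per gene) of the 8 other members in each library, by label of line and treatment (x axes). Symbols are single libraries and bars are mean and SD (n = 3). In the libraries labelled KGN, the treated group of IDH3B, CS, FH and OGDH lies below the untreated one and that of IDH3A and ACO1 above it, and in those labelled COV434 all 8 genes overlap.

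Counted over the 8 members other than IDH1, 1 rose (ACO1) and 3 fell (IDH3B, CS and FH) in the libraries labelled KGN at an adjusted p-value under 0.05, and 4 did not pass. The adjusted threshold was passed by 34.0% of the 12671 genes tested there, and 16.4% of them passed as lower. At an unadjusted p under 0.05, the threshold of the study's DEGs, 1 was higher and 5 were lower, beside 45.3% of all genes in either direction and 21.6% as lower. The groups of 6 of the 8 genes did not overlap, against 49.7% of all genes. In a fit of all 12 libraries, whose spread also takes in the libraries labelled COV434, 0 of the 8 passed, and 7.73% of the 13127 genes tested did. The median log2 fold change of the 8 was -0.19, beside 0.01 over all genes tested.

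Under the COV434 label, 0 of the 9 genes passed limma's adjusted threshold, as did 0.0415% of the 12060 genes tested, and 0 passed at an unadjusted p under 0.05, against 8.00% of genes. Voom on the recovered reads also called 0 of the 9. With the pair as a block, 1 of the 9 (IDH1) had an unadjusted p under 0.05, against 14.4% of genes. No gene of the 9 had groups without overlap, while 14.4% of all genes did. The median log2 fold change of the 9 was -0.07, beside -0.02 over all genes tested. Replicates of the 9 genes varied with a coefficient of variation of 2.71% to 8.40% in the groups labelled KGN and of 3.99% to 28.0% in those labelled COV434.

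The difference between the responses of the lines was tested by the interaction of line and treatment. Of the 8 genes other than IDH1, 0 passed limma's adjusted threshold, and 3.60% of the 13127 genes tested did. At an unadjusted p under 0.05 there were 2, against 18.0% of genes, namely ACO1 (above) and IDH3G, whose response was lower by 0.36 in KGN on the log2 scale (limma adjusted p = 0.274). Voom called 0 of the 8 after adjustment and 1 before it. For FH and IDH3B, which fell in KGN, the differences of -0.23 (95% confidence interval -0.70 to 0.23) and -0.20 (95% confidence interval -0.55 to 0.15) did not pass, and both intervals span 0.

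**Figure D3:**
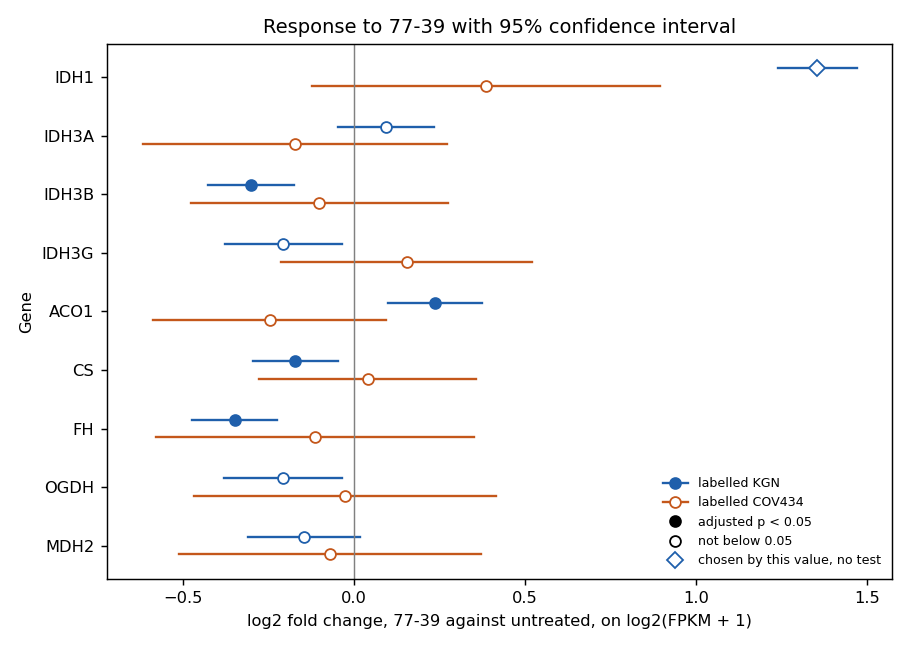
Log2 fold change between treated and untreated libraries on the scale of log2(FPKM + 1) (x axis) for the 9 genes (y axis), in the libraries labelled KGN (blue) and COV434 (orange), with 95% confidence intervals as lines. Filled points have an adjusted p-value under 0.05, and the open diamond marks IDH1 in KGN, a value that chose the gene. IDH1 stands at 1.35 in KGN, the other 8 lie between -0.35 and 0.24 there, and every COV434 interval spans 0.

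Before treatment the libraries labelled KGN had lower levels of most members than those labelled COV434. At an adjusted p-value under 0.05, 6 of the 8 genes other than IDH1 were lower in KGN. IDH1 was left out of this count, since its untreated KGN libraries belong to the contrast that chose it. Of the 13098 genes tested, 69.0% differed and 36.4% were lower in KGN. The groups of 7 of the 8 genes did not overlap, against 74.1% of all genes. OGDH differed most of the 8, with means of 16.6 ± 1.05 and 70.2 ± 14.7 FPKM (SD, n = 3) and a log2 difference of -2.0 (standard error 0.16, limma adjusted p = 4.46e-05). FH followed with 42.2 ± 2.35 and 104 ± 21.3 FPKM (SD, n = 3) and a log2 difference of -1.26 (limma adjusted p = 0.000481). IDH3A had 2.90 ± 0.142 and 8.47 ± 2.22 FPKM (SD, n = 3), a log2 difference of -1.25 (limma adjusted p = 0.000491). ACO1, at 7.12 ± 0.417 and 15.2 ± 0.759 FPKM (SD, n = 3), differed by -0.99 (limma adjusted p = 5.21e-05), and MDH2, at 54.6 ± 3.75 and 89.7 ± 15.7 FPKM (SD, n = 3), by -0.69 (limma adjusted p = 0.00557).

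The smaller differences between the lines depended on how libraries were scaled. The authors' total per library was 1.07 to 1.1 times the reads on genes in KGN and 0.911 to 0.978 times in COV434, and scaling to the reads themselves moved the median log2 difference of all genes from -0.02 to 0.16. IDH1 moved from -1.11 to -0.91 on this scale and to -0.72 after quantile normalization. Scaled to the reads, ACO1 stood at -0.81, FH at -1.06, IDH3A at -1.09, MDH2 at -0.49 and OGDH at -1.80. IDH3B, at -0.39 as deposited (limma adjusted p = 0.00526), stood at -0.19 (adjusted p = 0.0717) when scaled to the reads and at 0.04 after quantile normalization. MDH2 was -0.23 (adjusted p = 0.142) after quantile normalization. IDH3G, at 0.24 as deposited (limma adjusted p = 0.121), was higher in KGN at 0.44 (adjusted p = 0.0149) when scaled to the reads. CS, at -0.21 (limma adjusted p = 0.0723), did not pass in any scaling tried. Over all 16 alternatives its log2 difference ran from -0.26 to 0.22, so its direction was not fixed, and it passed in 2 of them.

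The order of the members by FPKM differed between the lines. In untreated KGN libraries it ran from MDH2, FH, IDH3G, CS and IDH3B through OGDH and IDH1 to ACO1 and IDH3A, and only OGDH and IDH1 overlapped among neighbours. In treated KGN libraries it was MDH2, IDH1, FH, IDH3G, CS, IDH3B, OGDH, ACO1 and IDH3A, with an overlap of IDH3G and CS only. In untreated COV434 libraries it was FH, MDH2, OGDH, IDH1, CS, IDH3B, IDH3G, ACO1 and IDH3A, and FH overlapped MDH2, MDH2 overlapped OGDH, IDH1 overlapped CS and CS overlapped IDH3B. The 77-39 treated COV434 libraries had the same order of means, and FH overlapped MDH2, MDH2 overlapped OGDH, CS overlapped IDH3B and IDH3B overlapped IDH3G. This order also depends on the gene length used. By the length of the shortest principal transcript, MDH2 had the highest mean in untreated libraries of both labels, 89.95 in KGN and 147.9 in COV434. FH stood at 50.35 and 123.8 there, and in untreated KGN libraries CS was 2nd and FH 4th. The orders still differed, with OGDH 7th in untreated KGN and 3rd in untreated COV434 libraries. The FPKM of the 9 genes summed to between 211 and 228 in each library labelled KGN and between 379 and 434 in those labelled COV434.

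Within COV434, members varied with the library number. OGDH and IDH3A were highest in library 1 of both groups, at 84.7 and 76.3 FPKM for OGDH, while FH and MDH2 were lowest there, at 81.4 and 85.1 FPKM for FH. The same-numbered library was the highest of its group for 7 of the 9 genes, and the lowest for 5 of them. The share of all genes for which this held was not counted. Same-numbered libraries also deviated together over the 12060 genes tested, with correlations of 0.40, 0.474 and 0.166, so this was not particular to the members. Mitochondrially encoded genes took 9.63%, 8.00% and 8.72% of reads in untreated libraries 1 to 3 and 13.5%, 8.74% and 7.71% in treated ones, so library 1 had the highest share in both groups. Its part in the levels of the 9 genes was not tested.

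Other enzymes and subunits of the matrix cycle were read from a list of 11 genes, all tested. Under the KGN label, 0 rose, 4 fell and 7 did not pass (background 34.0% of genes), with a median log2 fold change of 0.00. IDH2, the NADP-dependent enzyme of the matrix, had 38.8, 44.7 and 42.6 FPKM without and 24.4, 26.6 and 28.3 FPKM with 77-39, and fell by 0.65 on the log2 scale (standard error 0.07, limma adjusted p = 0.00127). IDH2 was thus lower and IDH1 higher with 77-39 in the libraries labelled KGN. The mean of IDH2 was 2.78 times that of IDH1 without and 0.656 times with 77-39 there. The IDH1 part of this shift is the rise that chose the gene, so the ratio is a description. Under the COV434 label the ratio was 0.59 without and 0.40 with 77-39. SDHA, the flavoprotein of succinate dehydrogenase, fell from 14.3 ± 0.357 to 9.70 ± 0.847 FPKM (SD, n = 3) with a limma adjusted p = 0.00182, and DLST, the E2 subunit beside OGDH, from 23.5 ± 0.166 to 19.7 ± 0.290 FPKM (SD, n = 3) with a limma adjusted p = 0.00403. Under the COV434 label, 0 of the 11 passed limma's adjusted threshold (background 0.0415% of genes). At an unadjusted p under 0.05 there was 1 (background 8.00% of genes), SDHA at -0.41 (limma adjusted p = 0.603). SUCLG2, a subunit of succinyl-CoA synthetase, was next at 0.22 (limma adjusted p = 0.787). IDH2 had 21.1, 19.3 and 20.4 FPKM without and 17.7, 16.4 and 19.2 FPKM with 77-39 there, a log2 fold change of -0.18 (adjusted p = 0.846).

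Pyruvate enters the cycle through the pyruvate dehydrogenase complex and pyruvate carboxylase. Of 13 genes on that list, 11 were tested in the libraries labelled KGN, and 0 rose and 6 fell there, at a median log2 fold change of -0.22 (background 34.0% of genes in either direction and 16.4% as lower). PC, the pyruvate carboxylase that refills oxaloacetate, fell from 4.38 ± 0.356 to 2.63 ± 0.217 FPKM (SD, n = 3; limma adjusted p = 0.00216). PDHA1, the E1 alpha subunit, fell from 15.0 ± 0.685 to 11.7 ± 0.140 FPKM (SD, n = 3; limma adjusted p = 0.00294), and PDK3, a kinase that inhibits it, from 4.61 ± 0.573 to 2.87 ± 0.0990 FPKM (SD, n = 3; limma adjusted p = 0.00389). Enzyme and inhibitor RNA thus both fell. For COV434, 0 of 13 passed limma's adjusted threshold (background 0.0415% of genes) and 3 had an unadjusted p under 0.05 (background 8.00%). Smallest were the p-values of the kinase PDK1, at -0.55 (adjusted p = 0.261), and of the phosphatase PDP1, at -0.49 (adjusted p = 0.432). PDK1 stood at -0.56 in KGN (adjusted p = 0.00421), and the responses differed by -0.01 (95% confidence interval -0.29 to 0.28).

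Of 4 genes of other cytosolic sources of NADPH, 2 were tested in the libraries labelled KGN and both fell with 77-39 (background 16.4% of genes lower), MTHFD1 of the folate cycle from 15.1 ± 0.409 to 12.1 ± 0.353 FPKM (SD, n = 3; limma adjusted p = 0.0033), and PGD of the pentose phosphate pathway by 0.23 on the log2 scale (limma adjusted p = 0.00934). The malic enzyme ME1 had 1 read in each of 2 of the 6 libraries labelled KGN and none in the others. The COV434 libraries held 9.45, 11.4 and 10.9 FPKM of ME1 without and 19.0, 14.3 and 15.7 FPKM with 77-39, with no overlap, at a log2 fold change of 0.58 (limma adjusted p = 0.301). There, 0 of 3 genes passed after adjustment (background 0.0415% of genes) and 2 before it (background 8.00%). Beside ME1, the other was MTHFD1 at -0.44 (limma adjusted p = 0.411).

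Transporters, shuttle enzymes and glutamate entry made a list of 10 genes, all tested. With 77-39, 1 rose and 4 fell under the KGN label (background 34.0% of genes). GOT1, the cytosolic aspartate transaminase, rose from 56.6 ± 1.86 to 77.0 ± 0.682 FPKM (SD, n = 3; limma adjusted p = 0.000825). SLC25A11, the carrier that exchanges 2-oxoglutarate for malate, fell from 36.8 ± 0.697 to 25.6 ± 0.686 FPKM (SD, n = 3; limma adjusted p = 0.000455). SLC25A10, the dicarboxylate carrier, fell from 5.35 ± 0.609 to 2.70 ± 0.590 FPKM (SD, n = 3; limma adjusted p = 0.00477). For COV434, 0 of 10 passed after adjustment (background 0.0415% of genes) and 1 before it (background 8.00%), SLC25A10 at -0.34 (limma adjusted p = 0.553). SLC25A13, the aspartate-glutamate carrier, followed at -0.25 (limma adjusted p = 0.766).

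Since ACO1 doubles as an iron regulatory protein, IREB2 and 5 transcripts with iron-responsive elements were read beside it. Of the 6, 5 were tested in the libraries labelled KGN, where 2 rose and 1 fell (background 34.0% of genes). FTL, the ferritin light chain, had 332, 333 and 295 FPKM without and 542, 587 and 670 FPKM with 77-39, a log2 fold change of 0.90 (limma adjusted p = 0.000989). FTH1, the heavy chain, stood at 0.32 (limma adjusted p = 0.0358) and has many processed pseudogenes that can share its reads. TFRC, the transferrin receptor, fell by 0.23 (limma adjusted p = 0.0131). For COV434, 0 of 5 passed after adjustment (background 0.0415% of genes) and 1 before it (background 8.00%). FTL had 1848, 2413 and 2410 FPKM without and 3083, 3638 and 3651 FPKM with 77-39 there, with no overlap, at a log2 fold change of 0.64 (limma adjusted p = 0.433), and FTH1 stood at 0.48 (adjusted p = 0.684).

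**Figure D4:**
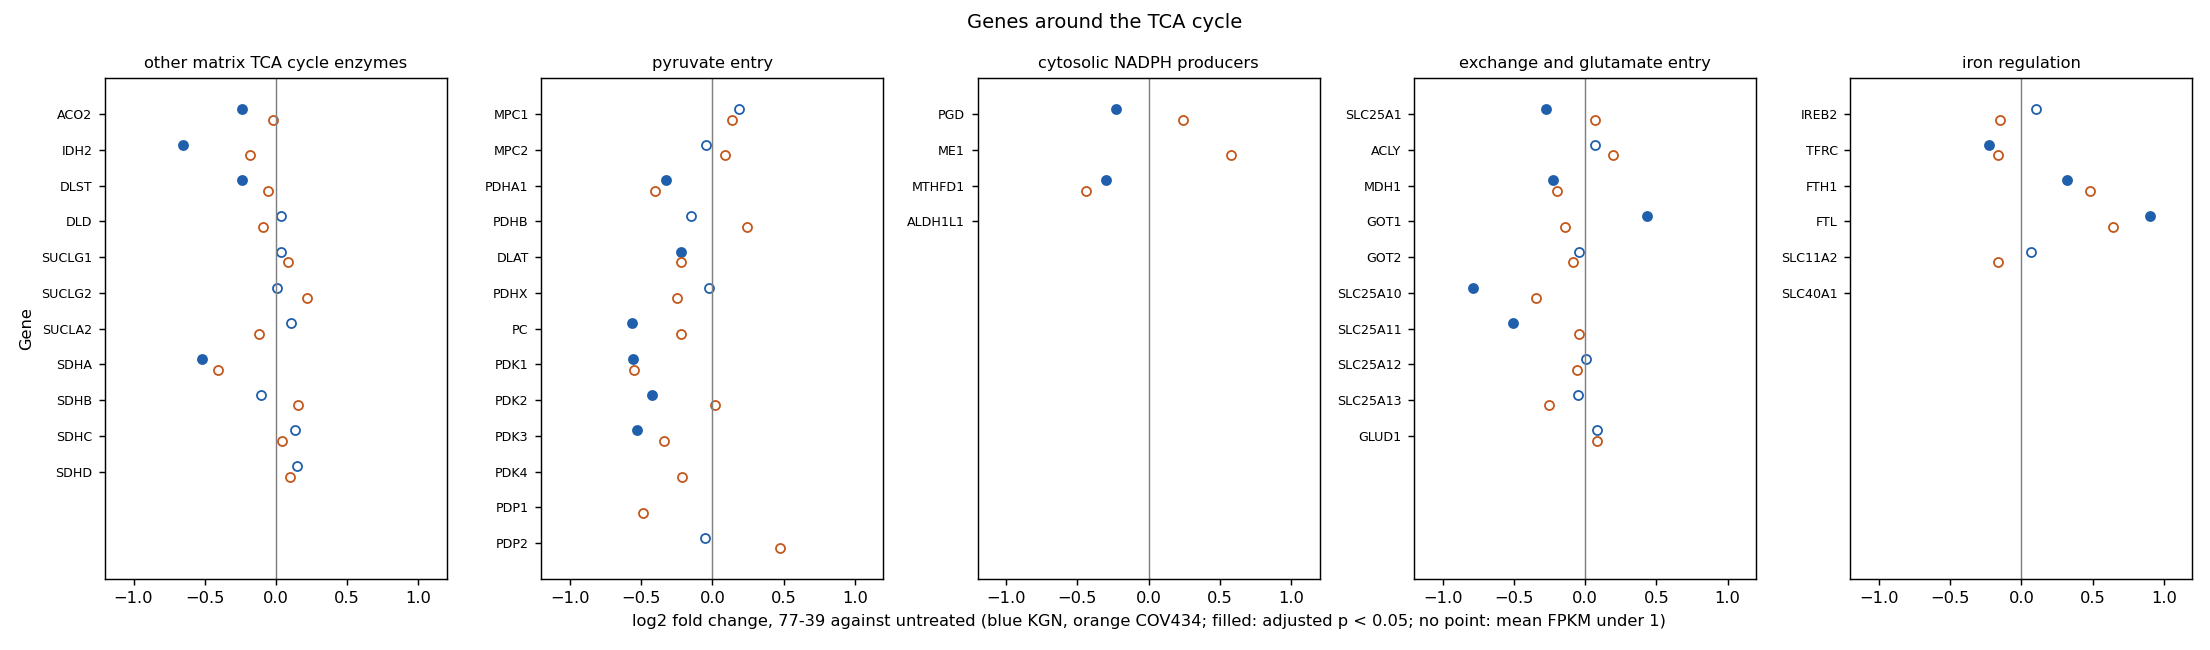
Log2 fold change between treated and untreated libraries (x axes) of the genes of 5 lists around the cycle (y axes), in the libraries labelled KGN (blue) and COV434 (orange). Filled points have an adjusted p-value under 0.05, and a gene without a point had a mean under 1 FPKM. In KGN, 4 of 11 matrix enzymes, 6 of 11 genes of pyruvate entry and 2 of 2 NADPH producers fell at that threshold. Of 10 genes of exchange and glutamate entry, 1 rose and 4 fell. Of 5 genes of iron regulation, 2 rose and 1 fell, with FTL at 0.90. Over all genes tested in KGN, 34.0% passed and 16.4% passed as lower. No COV434 point is filled, and 0.0415% of all genes passed there.

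Genes with the pattern most like that of IDH1 were sought by Pearson's r of log2(FPKM + 1) over the 12 libraries, among 9012 protein-coding genes that averaged 1 FPKM or more in each line. This is a description over libraries that share line, treatment and, in COV434, library number. The 5 highest were SC5D at 0.940, KCMF1 at 0.940, LAMP2 at 0.929, SPCS3 at 0.928 and NBN at 0.922. SC5D, a sterol desaturase of cholesterol synthesis, had a mean of 5.77 FPKM in untreated and 9.50 FPKM in treated KGN libraries and of 10.3 and 11.3 FPKM in those labelled COV434. LAMP2, a lysosomal membrane protein, had 18.9 and 33.0 FPKM in the former and 25.9 and 28.5 FPKM in the latter. These 5 were picked by r and the other members were not, so the 2 sets cannot be weighed against each other. Of the members, ACO1 stood at 0.589 (799th of the genes compared), IDH3A at 0.442, OGDH at 0.414 and MDH2 at 0.398. FH stood at 0.396, CS at 0.162, IDH3B at 0.0675 and IDH3G at -0.42. Each r also carries the KGN rise that chose IDH1.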

How the data were processed

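RNA was sequenced from 12 libraries of cultured human cells, 3 per line and treatment, grouped by their titles. The authors deposited FPKM per gene (fragments per kilobase of gene, scaled to library size), computed at a sequencing company from HISAT2 alignments (version 2.0.5 per the submitters' notes). The notes name the mouse builds mm10 and mm8, but start and end of all 58735 genes equal GENCODE release 29 on GRCh38. The counting tool and its strand setting are not given in the sources used here. FPKM multiplied by gene length gave whole reads, within 0.05, for 100% of genes above 0, with 15547851 to 18280415 reads per library; 3 reads, the limit that a count of 0 allows, equal 0.152 to 0.200 FPKM for a gene of 1 kb and cover counting error only. No 2 libraries were identical.

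Values were tested as log2(FPKM + 1) with limma 3.58.1 (lmFit, eBayes with trend, two-sided, R 4.3.3) for genes averaging 1 FPKM or more in the libraries of a fit, and adjusted by Benjamini-Hochberg over all genes tested. Each line was fitted alone, the untreated lines together, and the interaction on all 12 libraries. A fold change on this scale understates that of low genes. The members and lists, among them 5 lists of neighbouring pathways, and the tests were chosen with earlier results of these data known. From each list, up to 3 genes with the smallest p in KGN and up to 2 in COV434 were named, with the 5 genes most correlated with IDH1; IDH2 in COV434, PDK1 in KGN and the marker genes were named beside them after their values were seen. Some genes of the lists are not reported here and stay out of the lists' counts. Same-numbered COV434 libraries deviated from their group means together (correlation across genes 0.40, 0.474 and 0.166). The highest correlations of untreated libraries 1 to 3 with a differently numbered treated library were -0.10, 0.02 and 0.154. The numbers were taken as pairing, though number 3 stood barely apart, so the pair was also fitted as a block. Alternatives were another pseudocount, other filters and scalings, voom on the recovered reads, 1 fit of all libraries, the block, protein-coding genes only and leaving out each library. The length of the principal transcript was added after seeing the data. The fits were also run on simulated data without effects of library number. The changes planted there were larger than the treatment responses of the members other than IDH1. That run therefore does not bear on how well changes of their size are called. Promoter windows were read from RefSeq. Python 3.11.15 with numpy 2.4.6, pandas 2.3.3 and matplotlib 3.10.9 was used for tables and figures.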

Additional observations from a re-analysis of the deposited data

How the results depend on the processing

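Of the 4 members called in the libraries labelled KGN, FH and IDH3B passed in 15 of 16 alternatives each, ACO1 in 11 and CS in 4. The count of 4 became 2 without a filter on low values and 0 in the fit of all 12 libraries, and ranged from 2 to 5 as single libraries were left out, with 2 without untreated library 3, treated library 1 or treated library 2. It was 6 by voom, under median-ratio scaling and with protein-coding genes only, where IDH3G and OGDH passed too. Library numbers did not pair the KGN libraries (correlations -0.02, -0.02 and -0.02); with the number as a block the count stayed at 4, but CS left it (adjusted p = 0.104) and IDH3G entered (adjusted p = 0.0394). Of the KGN lists, the block took 1 call each from the other matrix enzymes (4 to 3), pyruvate entry (6 to 5) and iron regulation (3 to 2, FTH1 at adjusted p = 0.075).

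In COV434 the adjusted count of members was 0 in every alternative. The count at an unadjusted p under 0.05 went from 0 to 2 in the fit of all 12 libraries and to 1 with the replicate block, and was 0 to 1 with single libraries left out. Between untreated lines, 5 to 7 of the 8 members other than IDH1 passed, depending on the alternative; IDH3B turned to 0.0356 under quantile normalization, a scaling that forces 1 distribution on both lines. In the interaction, the adjusted count of 0 was 0 to 1 as libraries were left out, and the unadjusted count of 2 became 1 when scaled to the recovered reads, by voom and with protein-coding genes only, and 1 to 3 as libraries were left out. No other call on a member between untreated lines or in the interaction changed with the block.

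Over all genes, the 4307 calls in KGN fell to 1015 in the fit of all 12 libraries and were 2949 without a filter, and those in COV434 went from 5 to 25 by voom, 37 with protein-coding genes only, 480 in the fit of all 12 libraries and 87 with the block. The interaction gave 472 calls, 321 at a pseudocount of 0.1 and 261 by voom. With 3 libraries per group, replicate variation in COV434 reached 28.0%, for IDH1 in untreated libraries. The KGN responses of FH, IDH3B and CS lie within their COV434 confidence intervals, and that of ACO1 (0.24) above its own (upper bound 0.09). These intervals leave out the error of the KGN responses, and ACO1 did not pass in the interaction test (limma adjusted p = 0.0886).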
